A study of Rattus norvegicus with 6 samples.

Results

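The genes described here encode vasoactive peptides, their receptors and processing enzymes, the nitric oxide pathway and the adrenergic receptors, as measured in whole adrenal gland of 2 inbred rat strains. They were chosen by name, as a list of 39 genes, and every probe set annotated to a listed gene was taken. The array carried probe sets for 35 of the 39 (66 of its 8740 non-control probe sets). Ednra, Ednrb, Ramp1 and Ramp2 had none in the annotation used and were left out. Of the 66 probe sets, 62 named 1 gene alone and stood for 34 genes. In 1 of the 62 (AF064541_s_at) the annotation lists 2 gene entries that share the symbol Avpr1b, and they were counted as 1 gene. The other 4 named several genes at once and are given jointly. Adrenal RNA was hybridized to 6 Affymetrix Rat Genome U34 arrays. The SHR group, the spontaneously hypertensive strain, had 3 arrays, and so did the WKY group, the Wistar-Kyoto strain usually taken as its normotensive comparison. Neither group is labelled with a treatment, age or sex. The labels do not say whether a strain's 3 arrays stand for different animals. The p-values therefore describe only how far these arrays vary, and that variation may be technical.

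Vascular tone in the adrenal gland, as elsewhere, is set by opposing signals. Endothelins, cut from inactive precursors by endothelin-converting enzyme, constrict vessels and also act on cortical cells. Nitric oxide, made by the nitric oxide synthases, activates soluble guanylyl cyclase, and natriuretic peptides activate membrane guanylyl cyclases, so that both raise cyclic GMP, and natriuretic peptides restrain aldosterone secretion. Kinins are released from kininogens by kallikreins. Catecholamines from the medulla act on adrenergic receptors, and vasopressin, neuropeptide Y, VIP and PACAP act on receptors of their own in cortex or medulla.

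The tissue label was checked against marker genes of the adrenal cortex, of which 7 of 10 were on the array and tested. They summed to 293929 to 426065 in SHR and 322317 to 469892 in WKY, with 0 called in limma and 1 at an unadjusted p under 0.05. Few of the vasoactive genes gave a signal that stood clear of background in the adrenal gland. Intensities are in arbitrary units, as deposited. No detection call was used, so 2 background levels were set from the arrays themselves. The stricter was the 90th percentile, in each array, of 125 probe sets for 84 genes made chiefly in other organs. This level lay between 1828 and 2405. The 84 genes included digestive enzymes, pituitary hormones, crystallins and sperm proteins. They also included Umod, Slc12a1, Slc12a3, Aqp2, Slc22a6 and Slc34a1, which are read below as kidney markers. Of these, Slc34a1 (AB013455_g_at) read from 1655.9 to 4658.4. The more lenient was the 90th percentile of 15 probe sets for bacterial genes, between 230 and 424. A probe set counted as above a level in a strain where all 3 arrays exceeded it. By the stricter level 6 of the 62 probe sets passed, all in both strains, and they stood for 3 genes, Ece1, Npr1 and Avpr1b. By the lenient level 29 passed, 26 in both strains and 3 in WKY alone, and they stood for 20 genes. Over all 8740 probe sets, 27.9% passed the stricter level in at least 1 strain and 64.7% the lenient one, against 9.68% and 46.8% of the 62.

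The 17 genes between the levels were Adra1b, Adra1d, Adra2a, Adra2b, Bdkrb1, Calcrl, Gucy1a1, Gucy1b1, Klkb1, Kng2, Nos1, Nos2, Nos3, Nppc, Npr2, Npy1r and Vipr1. The 14 genes with no probe set above even the lenient level in either strain were Edn1, Edn2, Edn3, Nppa, Nppb, Npr3, Bdkrb2, Avpr1a, Adra1a, Adra2c, Adrb1, Adrb3, Vipr2 and Adcyap1r1. For these, no strain had all 3 arrays above that level, which does not show that the transcript is absent. Some of them exceeded it in part of the arrays. The highest readings were 2018.2 for Adrb3, 1247.6 for Edn3, 926.1 for Adra1a and 806 for Edn2. The 3 probe sets that passed in WKY alone belonged to Klkb1, Gucy1b1 and Adra1b. Intensities of different probe sets are not comparable as transcript amounts, because each probe set binds with its own strength.

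**Figure D1:**
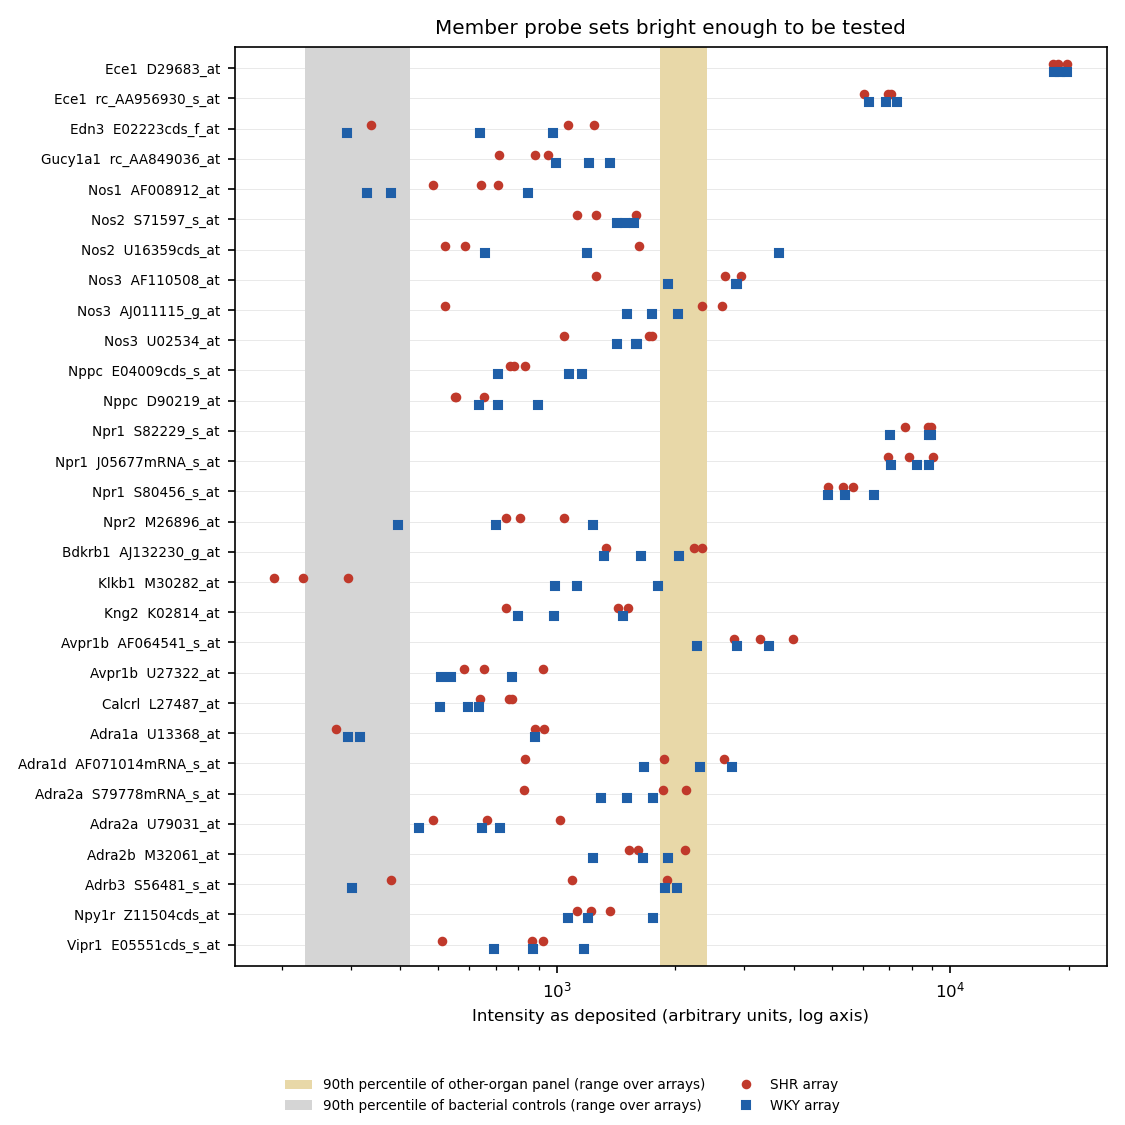
Intensity (arbitrary units, log axis) in each of 3 SHR arrays (circles) and 3 WKY arrays (squares) for the 30 member probe sets bright enough to be tested, with the range over arrays of the 2 background levels as shaded bands. The Ece1 and Npr1 probe sets lie to the right of both bands, and Klkb1 is the row whose strains stand farthest apart.

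The promoters of 3 genes are shown, because the results below turn on them. Klkb1 is the only listed gene called between the strains, a call that did not withstand fewer arrays. Ece1 and Npr1 are the genes that stood far above background in every array. Sequences are the 250 bases before the annotated start in the RefSeq reference rat (GRCr8), written 5′ to 3′ on the gene's strand, and are not the sequence of SHR or WKY. The Klkb1 window is chr16:53690976-53691225 on the plus strand, that of Ece1 is chr5:155360781-155361030 on the plus strand and that of Npr1 is chr2:178247089-178247338 on the minus strand. Capitals mark matches, on either strand, to the GC box letters GGGCGG, the CCAAT box letters CCAAT and the TATA box letters TATAAA. No match overlapped another.
Klkb1: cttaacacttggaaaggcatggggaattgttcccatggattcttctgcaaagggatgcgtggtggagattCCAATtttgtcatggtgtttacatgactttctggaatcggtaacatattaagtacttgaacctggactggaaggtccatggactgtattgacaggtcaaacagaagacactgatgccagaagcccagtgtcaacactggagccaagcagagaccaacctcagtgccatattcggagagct
Ece1: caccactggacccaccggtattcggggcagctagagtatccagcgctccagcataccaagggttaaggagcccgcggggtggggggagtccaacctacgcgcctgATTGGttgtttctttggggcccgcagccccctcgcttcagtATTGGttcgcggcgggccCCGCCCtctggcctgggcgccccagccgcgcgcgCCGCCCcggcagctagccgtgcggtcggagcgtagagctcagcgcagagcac
Npr1: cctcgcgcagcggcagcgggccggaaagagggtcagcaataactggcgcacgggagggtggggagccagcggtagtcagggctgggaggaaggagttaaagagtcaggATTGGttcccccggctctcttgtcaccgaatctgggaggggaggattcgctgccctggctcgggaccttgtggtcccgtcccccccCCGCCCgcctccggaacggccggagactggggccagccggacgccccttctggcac
The Klkb1 window held 1 match, to CCAAT, 180 bases before the start, and its GC content was 46.4%. The Ece1 window held 2 matches to GGGCGG (at 86 and 52 bases before the start, counted to the first base of the match) and 2 to CCAAT, with a GC content of 69.2%. The Npr1 window held 1 of each, with 68.8%. None of the 3 held TATAAA. Of 33469 promoters in the table, windows of the same length held GGGCGG in 30.5%, CCAAT in 34.02% and TATAAA in 12.9%, and the median GC content was 51.2%. Of the 32 listed genes with a promoter there, 14 held GGGCGG, 9 CCAAT and 5 TATAAA. A match is a description of the letters and not evidence of a bound factor.

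Between the strains, 1 of the 62 probe sets was called different, and it was lower in SHR. Strains were compared as SHR minus WKY on log2(intensity + 181.5), the added constant being the 20th percentile of all intensities, a scale on which changes of dim genes appear smaller than they are. The test took every probe set whose mean log2 value exceeded the 40th percentile. This kept 30 of the 62, which stood for 21 genes, and left 13 genes untested. With limma and Benjamini-Hochberg adjustment over all 5244 tested probe sets, 0 of the 30 rose and 1 fell, that of Klkb1, which is 3.33% of the 30. The background is 1.95% of all tested probe sets called in either direction with 0.877% called lower and 1.07% called higher, so a single call among 30 is close to the rate of the array. Klkb1 passed the brightness filter through its WKY arrays alone, the strain where it is high, so its place among the 30 is no support for the call. With every probe set tested, the count was 1 of 62 members and 83 of 8740 probe sets. At an unadjusted p under 0.05 there was again 1 of 30, where 13.9% of all tested probe sets passed. The 3 arrays of a strain lay wholly to one side in 3 of the 30 (Klkb1, Gucy1a1 and Calcrl), where the background is 20.7%. The median log2 difference of the 30 was -0.021, beside -0.0069 over all tested probe sets, and the 29 that were not called ran from -0.73 to 0.36.

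The 95% interval of the difference lay within a 2-fold change either way for 21 of the 30 probe sets, and for 72.8% of all tested probe sets. The fold here is of intensity + 181.5, so for dim probe sets it is smaller than the fold of intensity. For the other 9 the interval reached beyond 2-fold. The median standard error was 0.26 for the 30, and 0.22 over all tested probe sets.

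**Figure D2:**
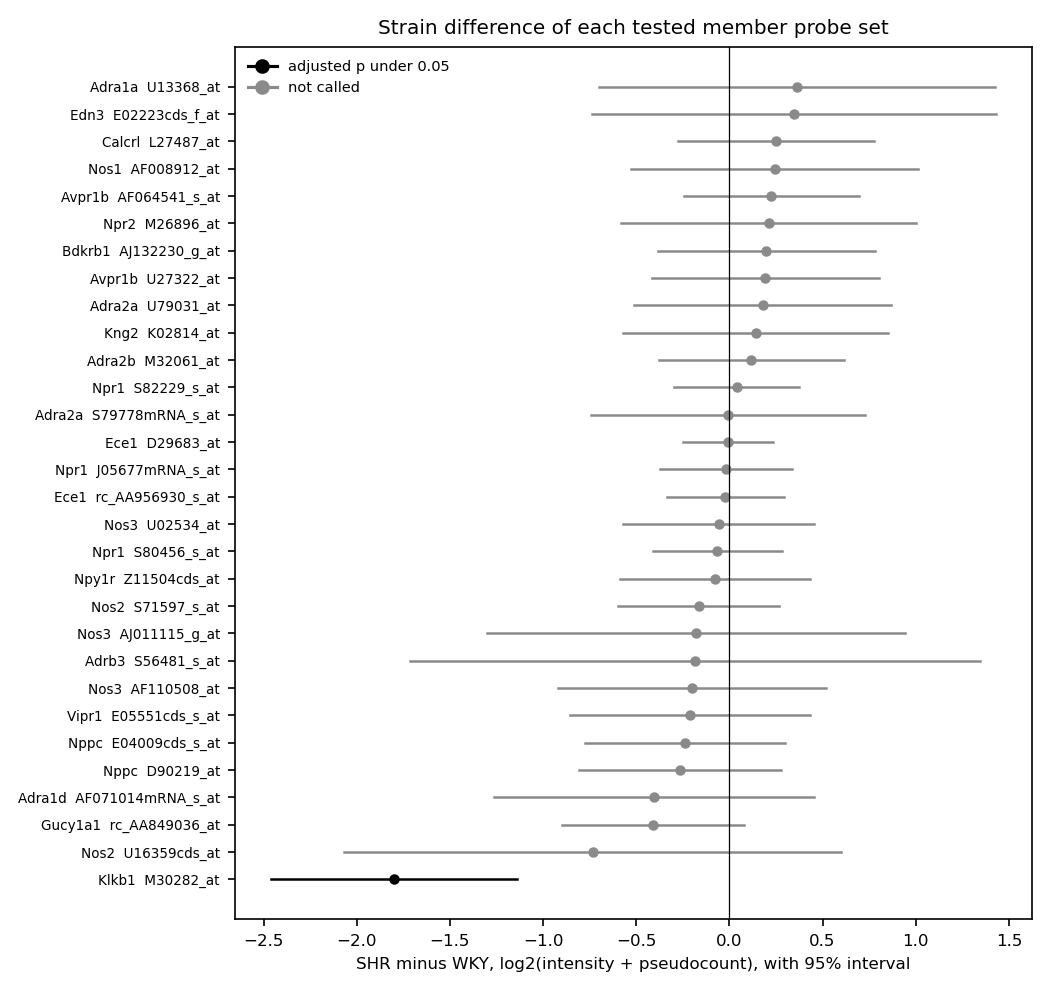
Log2 difference (SHR minus WKY, on log2(intensity + 181.5)) with its 95% interval from limma for each of the 30 tested probe sets, ordered by size. Klkb1, at -1.80, is the only black point, and the intervals of the other 29 include 0.

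In the kinin system, Klkb1 was lower in SHR. Klkb1 encodes plasma prekallikrein, which is made chiefly by the liver and, once activated, cuts bradykinin from high-molecular-weight kininogen. Its probe set (M30282_at) read 191.6, 227.4 and 294.9 in SHR replicates 1, 2 and 3, and 1128.2, 1813.5 and 991.7 in the WKY replicates. The strains did not overlap. All 3 SHR arrays lay below the lenient background of their own array, and all 3 WKY arrays lay above it, though below the stricter one. Mean intensities were 238 ± 52.5 in SHR and 1311 ± 440 in WKY (SD, n = 3 each), and no ratio is given because SHR lay below background. The log2 difference was -1.80 ± 0.29 (SE; 95% interval -2.46 to -1.14; limma adjusted p = 0.0247). Since SHR was at background, the size depends on the added constant, and it was -2.43 with a constant of 1 and -1.06 with 4 times the main constant, with the call kept in both.

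The Klkb1 call did not withstand fewer arrays. The arrays had been hybridized in 2 runs, of which the first held all 3 WKY arrays together with SHR replicate 1, while SHR replicates 2 and 3 formed the second. A fit with the run as a block gave a difference of -1.96 (limma adjusted p = 0.178), and within the first run alone it was -1.96 (0.286). Both values set SHR replicate 1 against the WKY arrays, and the second run held no WKY array. With each array left out in turn and the same probe sets tested, the difference ran from -1.95 to -1.57 and limma's adjusted p from 0.0467 to 0.101. It passed without WKY replicate 3 and did not pass without any of the other 5 arrays.

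Markers of liver and plasma proteins were read beside Klkb1, since RNA or cells of another source could carry its transcript. Of 13 listed, 12 were on the array and 8 were tested, with 0 called and 1, Serpina1, at an unadjusted p under 0.05 in limma. Their summed intensity ran from 7238 to 8766 in SHR and from 7366 to 9992 in WKY, so the strains overlapped. Albumin (Alb) read 492.6, 566 and 741.1 in SHR and 507.6, 517.8 and 652 in WKY. Ahsg, which encodes the liver protein fetuin-A, read 278.6, 247.3 and 235 in SHR against 618.8, 706.2 and 816.6 in WKY, and was too dim to be tested. Serpina1, the alpha-1-antitrypsin gene, read 1523.7, 327.4 and 1129.4 against 2528.2, 2374.1 and 2606.6. Thus Ahsg and Serpina1 read lower in every SHR array than in any WKY array, Alb overlapped, and Ttr, the transthyretin gene, read higher in every SHR array. Of the 8 tested, 6 had a positive log2 difference (SHR minus WKY), and the median was 0.12. Not all of the 12 were above background. Tat, at 40.9 to 157.3, and F2, at 43.9 to 196.5, lay below the lenient level in every array. The part of the 12 in the Klkb1 result was not tested. Kidney markers (7 of 7 on the array, 5 tested) gave 0 calls. All of them but Kap were also in the panel behind the stricter background. Slc22a6, lower in every SHR array, was the 1 at an unadjusted p under 0.05 in limma. They summed to 4317 to 7107 in SHR and 5385 to 9980 in WKY. Kap read 2050.3 in WKY replicate 1 and from 18.9 to 58.7 in the other arrays. The part of kidney RNA in any value was not tested. In whole gland, fewer cells of a type and less RNA per cell cannot be told apart.

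The remaining kinin genes showed no call. Bdkrb1, the kinin receptor induced by tissue injury, read 2337.5, 1337.8 and 2227.6 in SHR and 1322.2, 1641.5 and 2043.6 in WKY in its tested probe set (AJ132230_g_at). The strains overlapped (limma adjusted p = 0.776). Its other probe set (AJ132230_at) ran from 184.9 to 827.4 over all 6 arrays. Bdkrb2, the receptor through which bradykinin acts in most tissues, read 306, 93.6 and 94.2 in SHR and 59 to 84.8 in WKY. The strains did not overlap, but all readings except the first lay below the lenient background, and the probe set was not tested. Kng2, a kininogen gene of the rat, ran from 745.7 to 1515.4 with overlapping strains, and the probe set shared by Kng1, Kng2 and Kng2l1 ran from 312.6 to 1582.4 (limma adjusted p = 0.531).

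Among the endothelin genes, the converting enzyme was bright and even between strains. No peptide gene exceeded even the lenient background in all 3 arrays of a strain. Ece1 read 18775.5, 19834.3 and 18223.9 in SHR and 19042.9, 18316.4 and 19770.5 in WKY (D29683_at). Its second probe set (rc_AA956930_s_at) read 6046.8, 6948.1 and 7071.6 against 6862.1, 6201.9 and 7323.7. In both, the strains overlapped throughout. The log2 differences were -0.0076 (95% interval -0.25 to 0.23; limma adjusted p = 0.983) and -0.022 (-0.34 to 0.29; 0.963), signs that other scalings turned. A difference of more than 1.5-fold therefore lies outside both intervals. Edn1, the main endothelial peptide gene, ran from 97.7 to 258.3 over the 6 arrays, Edn2 from 163.7 to 806, and Edn3 from 86 to 543.3 and from 293 to 1247.6 in its 2 probe sets. Only the second was tested (limma adjusted p = 0.795), and its lowest readings, 337.2 and 293, were SHR replicate 3 and WKY replicate 3.

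In the nitric oxide pathway 0 of 7 tested probe sets passed in limma and 0 had an unadjusted p under 0.05. The 2 subunit genes of soluble guanylyl cyclase, the nitric oxide receptor, were singled out after their values were seen. Gucy1a1, the alpha-1 subunit, read 953.4, 712.7 and 879.5 in SHR and 1206.9, 1366.1 and 995.7 in WKY. The strains did not overlap, but the log2 difference of -0.41 ± 0.21 (SE; 95% interval -0.90 to 0.078) had a limma adjusted p of 0.433, and it was -0.26 with the run as a block. Gucy1b1, the beta-1 subunit, read 429.4, 363.6 and 441.4 in SHR and 653.3, 609.6 and 436.7 in WKY, was too dim to be tested, and overlapped only through WKY replicate 3.

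The synthase genes were read by several probe sets each, given here 1 by 1 because their intensities are not comparable. Nos3, the endothelial form, had 6. The first (AF110508_at) read 2674.1, 2932.1 and 1260.9 in SHR and 1922.9, 2867.2 and 2850.4 in WKY, with SHR replicate 3 the low array. The other Nos3 probe sets tested ran from 1046.5 to 1744.9 (U02534_at) and from 521.3 to 2630.5 (AJ011115_g_at), where SHR replicate 2 was the low array. The 3 too dim to be tested ran from 156.4 to 592.8 (AJ011115_at), from 128.3 to 408.7 (AJ011116_at) and from 51.6 to 119.6 (AF085195_at). All 6 overlapped between strains. Nos2, the inducible form of macrophages and cytokine-treated cells, had 4 probe sets of its own and 3 shared with the pseudogene Nos2-ps1. The first of its own (S71597_s_at) read 1256.4, 1588.6 and 1126 in SHR and 1490.7, 1568.2 and 1422.9 in WKY. A second (U16359cds_at) had the largest difference of the uncalled probe sets, -0.73 ± 0.58 (SE, log2; limma adjusted p = 0.625). There WKY replicate 1 read 3676.3 and the other arrays from 520.6 to 1615.4. The remaining Nos2 probe sets ran from 281.3 to 678.1 (AF006619_s_at) and from 145.3 to 475 (U03699complete_seq_at), both overlapping and too dim to be tested. Those shared with the pseudogene name no gene alone. They ran from 465.2 to 1249.7 (D83661_s_at; limma adjusted p = 0.813) and from 602.6 to 1070.4 (U48829_s_at; 0.665). The last shared probe set (D44591_s_at) read 241, 293.4 and 469 in SHR against 233.1, 193.6 and 204.9 in WKY, without overlap, and was too dim to be tested. Nos1, the neuronal form, ran from 329.8 to 846.7 in its tested probe set and from 114.1 to 394.3 in the other 2.

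No endothelial marker gene was called. Of 13 listed, 6 were on the array and 5 tested, with 0 called and 0 at an unadjusted p under 0.05, and their summed intensity ran from 6937 to 9406 in SHR and from 7508 to 8597 in WKY. Smooth muscle markers (7 of 8 on the array, 4 tested) gave 1 call, Acta2, higher in SHR, and summed to 11473 to 16386 in SHR and 8326 to 12170 in WKY. Leukocyte markers (7 of 10 on the array, 5 tested) gave 1 call, Cd74, lower in SHR, and summed to 11208 to 15186 in SHR and 12573 to 28296 in WKY. The part of these cell types in the levels above was not tested.

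**Figure D3:**
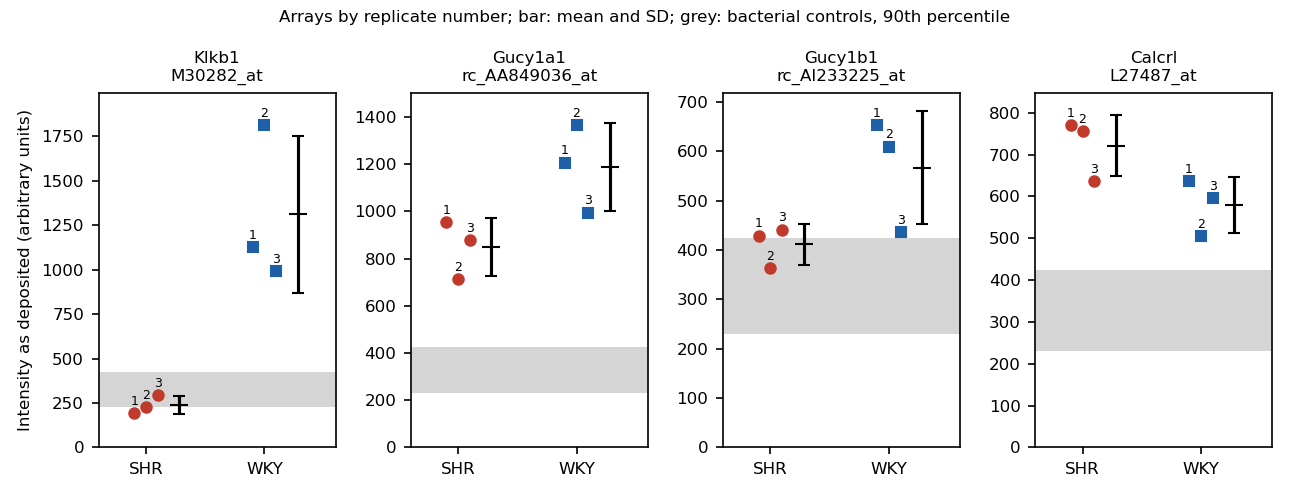
Intensity (arbitrary units, linear axis from 0) of Klkb1, Gucy1a1, Gucy1b1 and Calcrl in each array, numbered by replicate, with the mean and SD of each strain (n = 3) and the range of the lenient background in grey. The SHR arrays of Klkb1 sit in or under the grey band, from 191.6 to 294.9, and its WKY arrays from 991.7 to 1813.5.

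In the natriuretic peptide system 1 receptor gene exceeded the stricter background and no peptide gene did. Npr1, the membrane guanylyl cyclase that binds atrial and B-type natriuretic peptides, read 9056.7, 7849 and 6935.9 in SHR and 7058.6, 8855.4 and 8235.6 in WKY (J05677mRNA_s_at). Its second probe set (S82229_s_at) read 8768.6, 8937.9 and 7682.1 against 8949.4, 8823.9 and 7019.4, and the third (S80456_s_at) 5334, 5656.6 and 4901.9 against 4896.6, 6406.1 and 5416.8. All 3 exceeded the stricter background in every array, and in each the strains overlapped. The log2 differences were -0.020, 0.039 and -0.065, with limma adjusted p from 0.887 to 0.973 and intervals no wider than -0.41 to 0.38. Their signs changed when arrays were left out, so no direction is given. Npr2, the receptor for C-type natriuretic peptide, ran from 395 to 1234.8 with WKY at both ends of the range.

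Of the peptide genes, Nppc, which encodes the C-type peptide, read 759.8, 831.2 and 780 in SHR and 709.2, 1074.2 and 1159.8 in WKY (E04009cds_s_at), and 555.1, 551.7 and 654.4 against 708.3, 634 and 899 in its other probe set (D90219_at). Both passed the lenient background in both strains, and neither was called (limma adjusted p = 0.707 and 0.673). Nppa, the atrial peptide gene, ran from 32.8 to 495.1 over 4 probe sets, and Nppb, the B-type peptide gene, from 128.3 to 341.6. Npr3, the clearance receptor that removes these peptides, ran from 50.9 to 496.4 over 2. None of these 3 genes was bright enough to be tested.

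Of the vasopressin receptors, Avpr1b, the form best known from pituitary corticotrophs, was above the stricter background by 1 of its 2 probe sets. That probe set (AF064541_s_at), the one annotated to 2 entries of that symbol, read 3994.6, 3292.8 and 2813.9 in SHR and 2270.9, 2864.5 and 3457.7 in WKY. The other (U27322_at) read 924.5, 654.6 and 582.1 against 539.1, 770.8 and 508.1 and was above the lenient level only. The strains overlapped in both. The log2 differences were 0.23 ± 0.20 and 0.19 ± 0.26 (SE; limma adjusted p = 0.680 and 0.799). Avpr1a, the receptor of vascular smooth muscle and liver, ran from 29.3 to 289.7 and was not tested. Calcrl, the receptor that binds CGRP or adrenomedullin according to its Ramp partner, read 770.3, 756.6 and 637 in SHR and 636, 504.8 and 596.3 in WKY (L27487_at). These did not overlap, by a margin of 1 unit between the nearest arrays, and the difference of 0.25 ± 0.23 was not called (limma adjusted p = 0.684). Its other probe set (rc_AI228025_s_at) ran from 43.1 to 94.3.

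Adrenergic receptor genes gave 0 calls in 6 tested probe sets, with 0 at an unadjusted p under 0.05 in limma. Adra1d, an alpha-1 receptor, read 2655.9, 1868.9 and 831.1 in SHR and 1666.4, 2781.7 and 2316.2 in WKY (AF071014mRNA_s_at), and its second probe set (M60654_at) ran from 73 to 118.4. Adra2a, the alpha-2 receptor that restrains catecholamine release, read 2134.5, 825.8 and 1858.3 against 1760.1, 1293.3 and 1505.8 in its first probe set (S79778mRNA_s_at). Its other probe sets ran from 448.1 to 1020.7 (U79031_at) and from 253.8 to 380.3 (M62372cds_s_at). Adra2b, another alpha-2 receptor, read 1531.1, 2118.8 and 1606.5 against 1240.5, 1921.2 and 1661.7. The strains overlapped in each of these 3 genes.

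No adrenergic receptor probe set exceeded the stricter background in all 3 arrays of a strain. Adra2c, the third alpha-2 receptor, read 133, 114.3 and 91.7 in SHR and 215.6, 328.6 and 261.6 in WKY. The strains did not overlap, but every array lay below its lenient background, so no fold is given, and the probe set was not tested. Adra1b ran from 281.2 to 797.7 and passed the lenient level in WKY alone, with SHR readings of 470.6, 281.2 and 357.7 and WKY readings of 576.2, 797.7 and 424.8. Adrb3, the beta receptor of fat cells, read 1902.5, 1093.4 and 379.5 in SHR and 1883.7, 2018.2 and 302.3 in WKY. The 2 arrays numbered 3 were thus low in both strains, and its 95% interval, -1.72 to 1.34, was the widest of the 30. Fat cell markers summed to 30903 to 43698 in SHR and 31031 to 63356 in WKY, with 7 of 9 on the array and 1 of 6 tested, Cfd, called lower in SHR by limma. Lep, even at 16176.9 to 18381.1, and Ucp1, at 2196.8 to 15049.1, weighed heavily in that sum. Fabp4 stood at -1.52 ± 0.52 (SE, log2; limma adjusted p = 0.235), and 3 of the 6 tested had a positive difference. Adra1a ran from 274.7 to 926.1 and Adrb1, the beta receptor of the heart, from 182.8 to 350.5.

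**Figure D4:**
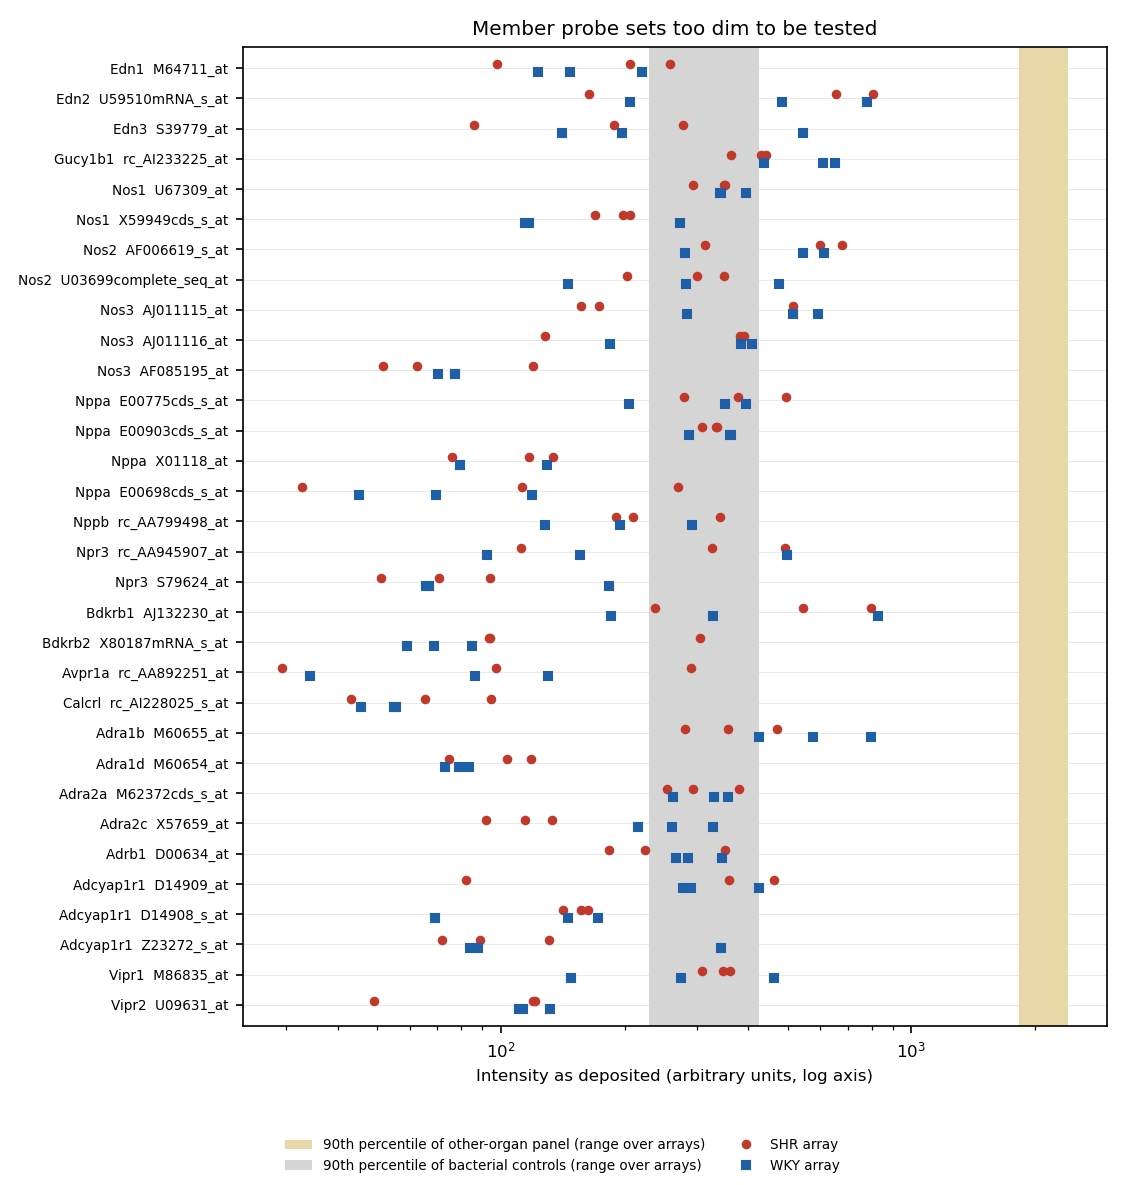
Intensity (arbitrary units, log axis) in each SHR array (circles) and WKY array (squares) for the 32 member probe sets too dim to be tested, with both background levels as shaded bands. All readings lie between 29.3 and 827.4, under the stricter band, and 2 probe sets, those of Gucy1b1 and Adra1b, exceeded the lenient level in all 3 arrays of a strain.

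Receptors for neuropeptide Y, VIP and PACAP also overlapped between strains. Npy1r, a neuropeptide Y receptor of vessels and adrenal cells, read 1225.3, 1124.9 and 1369.9 in SHR and 1065.9, 1201.3 and 1752.7 in WKY (limma adjusted p = 0.919). Vipr1, a receptor shared by VIP and PACAP, read 863.3, 512.8 and 921.1 against 870.6, 692 and 1170.3 in its tested probe set (E05551cds_s_at; 0.789), and ran from 148.4 to 463.1 in the other (M86835_at). Vipr2, the other shared receptor, ran from 49.1 to 131.6. Adcyap1r1, the PACAP-preferring receptor known from chromaffin cells, ran from 69 to 461.6 over 3 probe sets, none of which was tested. Markers of the medulla, which carries that receptor, mostly read lower in SHR (9 of 10 on the array and tested, 1 called lower in SHR by limma, Dbh). Of the 9, 2 had a positive log2 difference. An unadjusted p under 0.05 in limma was reached by 6, among them Slc18a2, where 13.9% of all tested probe sets passed. Pnmt, Scg2, Slc18a1 and Snap25 also read lower in every SHR array without being called, Slc18a2 read higher in every SHR array (log2 0.91, adjusted p = 0.329 in limma), and Th, Chgb and Ddc overlapped. The summed intensity of the medulla markers, which the brighter probe sets dominate, was 40867 to 52170 in SHR and 54200 to 62353 in WKY, without overlap. Nerve and Schwann cell markers likewise summed to 4413 to 5384 and 5834 to 7296, without overlap (7 of 9 on the array, 0 of 4 tested called). Of the 4, 2 had an unadjusted p under 0.05 in limma. These were Prph and Pmp22, lower in every SHR array, while Nefh and Mbp overlapped. The part of these cell types in the receptor values was not tested.

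Other genes of the same pathways were taken from a list of 92, of which 74 were on the array. With the brightest tested probe set of each, 36 genes could be tested, 0 were higher and 0 lower in limma, and 5 had an unadjusted p under 0.05, where the share over all tested probe sets is 13.9%, so the list does not stand apart from the array. Log2 differences were positive for 2 of 5 peptide genes, 2 of 6 processing enzymes and 5 of 8 receptors. They were positive for 4 of 11 genes of arginine supply and cyclic GMP and 4 of 6 of receptor regulation. Genes of smallest p in each group are named below as a description, fewer than the plan allowed. Most of the named genes were lower in SHR, which is not the direction of the list as a whole. Next by p in each group, also uncalled, came Tac1 (log2 0.42), Mme (-0.24), Ptger3 (0.42), Gucy1b2 (0.82) and Grk3 (0.70). Of 5 tested peptide genes, Npy, the neuropeptide Y precursor, stood at -0.58 ± 0.24 (SE, log2; limma adjusted p = 0.329). Of 6 peptide-processing enzymes, Dpp4, which trims several vasoactive peptides, was at -0.31 ± 0.24 (0.624). Of 8 further receptors, Ptgir, the prostacyclin receptor, read 2144.7, 1817 and 1264.2 in SHR and 4391.2, 2422.8 and 2267.4 in WKY, a difference of -0.71 ± 0.29 (0.323). The 11 genes of arginine supply and cyclic GMP included Gucy2e, a membrane guanylyl cyclase, at -0.54 ± 0.17 (0.199). They also included Pde3a, a phosphodiesterase inhibited by cyclic GMP, at 0.71 ± 0.30 (0.331), and Ass1, which makes the arginine precursor argininosuccinate from citrulline. Ass1 varied widely within strains, at 116.8, 160.1 and 1539.4 in SHR and 6243, 815.6 and 3342.2 in WKY, and its difference of -2.34 ± 0.82 was not called (0.249). Of the 6 genes of receptor regulation, Grk6, a receptor kinase, was at -0.74 ± 0.38 (0.431), with SHR replicate 3 at 1966.6 and the other 5 arrays from 5460.6 to 7302.7.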

How the data were processed

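The values deposited by the authors are linear intensities, 1 for each probe set on each array, and array medians ran from 798.3 to 899.5. Which expression algorithm and scaling produced them is not stated in the labels or files used. Other deposited values, instrument settings written per array per the file headers, gave 1 chip lot and a hybridization time for each array. The 2 runs were inferred from these times, split at gaps of more than 60 minutes. After 59 control probe sets were removed, names came from the array's annotation table, with symbols updated through RefSeq by gene ID: of 8740 probe sets, 7017 carried 1 symbol, 297 several and 1426 none. Values were used as deposited, with no further normalization, and tested with limma 3.58.1 (lmFit, eBayes with trend, no covariate, two-sided) in R 4.3.3. A list gene was represented by its brightest tested probe set. The number of arrays limits the precision.

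The fit was tested on simulated arrays with known differences, independent noise and no run effect. That test therefore cannot speak to the overlap of strain with run. The members, gene lists, background rule and tests were chosen with earlier results of these data known. Values in every array are given for probe sets that passed the test, those above background without overlap and the 10 brightest members, and of the pathway list genes of smallest p are named. Further probe sets shown array by array were added after their values were seen. Alternatives changed the normalization, constant, filter, moderation, block and arrays. Deviations of same-numbered arrays correlated at 0.00088, 0.010 and 0.071, so the numbers were not taken as pairs.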

Additional observations from a re-analysis of the deposited data

How the results depend on the processing

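Of 23 alternatives, those that changed the scaling, the constant or the moderation, or tested every probe set, kept the Klkb1 call. The count of member probe sets called was 0 with a filter at the 60th percentile, which drops Klkb1, with the replicate block, with the run as a block and in the first run alone, and 0 to 1 with an array left out. The Klkb1 difference was -1.80 with the replicate block (limma adjusted p = 0.0682), -1.96 with the run as a block or in the first run alone, and -1.95 to -1.57 with an array left out. Leaving out WKY replicate 1 or 2 put Klkb1 under the filter, so testing the same probe sets was added after seeing the data. Over all probe sets the 102 calls became 60 without the intensity trend, 53 with the replicate block, 20 with the run block, 1 in the first run alone and 36 to 59 with an array left out. The 6 probe sets above background became 19 at the panel's 75th percentile, 25 against the 40th percentile of all probe sets, 29 against bacterial controls and 11 where 2 of 3 arrays sufficed. Signs changed for 16 of the 30 tested probe sets under some alternative, and none of the 29 uncalled was called under any. The Ece1 differences became 0.030 (D29683_at, common median), 0.0019 and 0.015 (rc_AA956930_s_at, quantile and common median), and ran from -0.041 to 0.020 and from -0.085 to 0.047 with an array left out. Those of Npr1 became 0.017 (J05677mRNA_s_at, common median) and 0.17 (run block or first run alone), and ran from -0.12 to 0.071, from -0.15 to 0.037 (S80456_s_at) and from -0.072 to 0.11 (S82229_s_at) with an array left out. The count of pathway genes stayed at 0 throughout. The cause of these changes was not tested. For dim members, signal over background limits what can be said.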

Other observations

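Genes that neighbour Klkb1 in the GRCr8 annotation were read because Klkb1 was called between the strains, a choice made after its value was seen. Its neighbours were taken as the 8 nearest genes on the chromosome with probe sets of their own. Counted in genes from Klkb1, the nearest, Mtnr1a, lay at 3 and the farthest, Acsl1, at -34, so none was adjacent. They had 13 probe sets in all, and 11 of these were tested. In limma 0 of the 11 were called, 3 had an unadjusted p under 0.05 and the strains did not overlap in 4, where the shares over all tested probe sets are 13.9% and 20.7%. Fat1, an atypical cadherin, read 9531.6, 10300.9 and 7589.8 in SHR and 5397.5, 3809.4 and 5871.6 in WKY, a log2 difference of 0.85 ± 0.20 (SE; limma adjusted p = 0.0887). Sorbs2, an adaptor protein of the actin cytoskeleton, was at 1.08 ± 0.26 (0.0978) in 1 probe set (AF026505_at) and at 0.62 ± 0.23 (0.276, rc_AI058393_s_at) and 0.19 ± 0.19 (0.721, rc_AA891194_s_at) in the other 2, whose strains overlapped. Pdlim3, a protein of muscle and actin fibres, read 250, 281.4 and 241.9 in SHR and 487.2, 494.9 and 569.9 in WKY, and was too dim to be tested. Ufsp2, a protease of the ubiquitin-like modifier system, was at -0.27 ± 0.20 (0.590), and Acsl1, a long-chain acyl-CoA synthetase, at -0.44 ± 0.21 (0.414) in 1 of its 4 probe sets (rc_AI044900_s_at), both without overlap. The neighbours whose strains did not overlap thus lay in both directions, and none passed the test.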
